A study of Homo sapiens with 2 samples.

Results

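The enzymes that make serine and pass its carbon units to folate were described through 10 genes in HL-60, an established line from a human promyelocytic leukaemia: PHGDH, PSAT1 and PSPH of serine synthesis, SHMT1 and MTHFD1 of the cytosolic folate pathway, and SHMT2, MTHFD2, MTHFD1L, MTHFD2L and ALDH1L2 of the mitochondrial one. They were chosen by name as established members of the pathway, with earlier results of these data known. All 10 had at least 1 probe set that carries no other gene symbol, 12 such probe sets in all. They are among the 18404 genes that could be named on the array. RNA came from untreated, unmodified HL-60 cells grown in DMEM with 10% serum at 37 °C and 5% CO2, and was hybridised to Human Gene 1.0 ST arrays from Affymetrix, 2 in all, named replicate 1 and replicate 2 by the labels. The study as a whole concerns the link between RNA bound by the DNA methyltransferase DNMT1, DNA methylation and expression. The arrays form 1 group, so no genotype or treatment is compared and no test between groups exists. What follows gives each gene's signal against a background and the difference between the 2 arrays, as values without p-values.

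Serine is built in the cytosol from phosphoglycerate, an intermediate of glycolysis, in 3 steps catalysed in turn by the products of PHGDH, PSAT1 and PSPH. Serine hydroxymethyltransferases then move a carbon unit from serine to tetrahydrofolate and leave glycine. The carrier exists in parallel pools in the cytosol and in mitochondria, and in proliferating cells the mitochondrial pathway commonly oxidises the unit to formate, which leaves for the cytosol and feeds purine, thymidylate and methionine synthesis. The transcription factor ATF4, made when amino acids run short or protein folding fails, is known from other work to activate several genes of both pathways.

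Signals are log2 RMA values, in which the probes of a probe set are summarised together. Probe sets bind their targets with unequal strength, so a level is read against the background and never against the level of another gene. The background was the 95th percentile of 340 olfactory receptor genes, 2.87 on replicate 2 and 2.98 on replicate 1. A stricter second threshold came from 115 keratin-associated protein, bitter taste receptor and beta-defensin genes, and lay at 5.23 on replicate 2 and 5.41 on replicate 1. The difference between the arrays (replicate 2 minus replicate 1) had a median of -0.04 and an SD of 0.39 over all named genes, or 0.28 for a single array. Of 10 measured promyelocyte markers, 10 passed the olfactory threshold on each array and 5 the second, where 55.8% and 17.0% of all named genes did, and AZU1 passed the first by only 0.03 on replicate 1. Of 30 measured markers of T and NK, B, erythroid, monocyte, epithelial, liver and stromal cells, 8 passed that threshold and 0 the second. DNMT1 read 6.67 on replicate 2 and 7.0 on replicate 1. Separate cultures are not mentioned in the labels, so the spread may be purely technical, and 2 arrays limit the precision of every value.

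Of the 10 enzyme genes, 9 were above the olfactory threshold on both arrays, where 55.8% of all named genes were, and 6 were above the second threshold, where 17.0% of all named genes were. The exception to the first count was PSPH, whose averaged signal passed on replicate 2 alone, although its brighter probe set passed on each array. PHGDH, PSAT1, MTHFD1, SHMT2, MTHFD2 and MTHFD1L passed both thresholds on both arrays. SHMT1 and MTHFD2L passed the olfactory threshold alone on both arrays, and ALDH1L2 passed the second threshold on replicate 2 only.

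**Figure D1:**
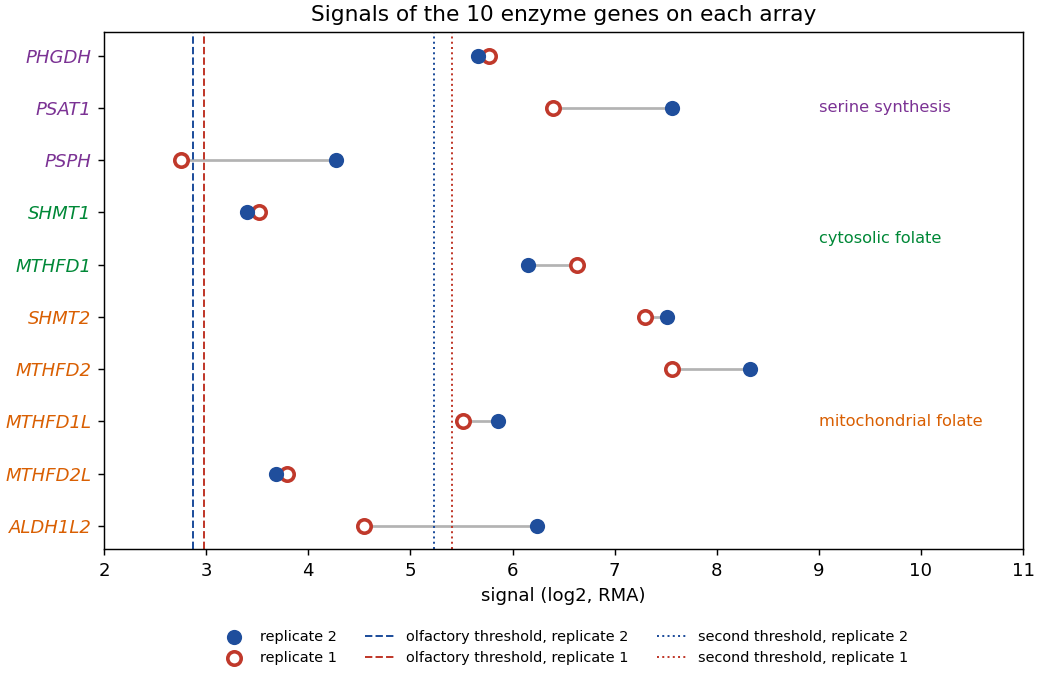
Signal of each of the 10 genes (log2 RMA, horizontal axis) on replicate 2 (filled) and replicate 1 (open), with the olfactory (dashed) and second (dotted) thresholds of each array. PSAT1, PSPH, MTHFD2 and ALDH1L2 lie further right on replicate 2, and the 2 cytosolic genes SHMT1 and MTHFD1 lie further left on it; positions of different genes are not relative amounts.

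A difference beyond 0.5 (log2) between the arrays was seen in 4 of the 10 genes, PSAT1, PSPH, MTHFD2 and ALDH1L2, and all 4 were higher on replicate 2. Over all named genes, 7.95% were higher on replicate 2 by more than 0.5, and 9.58% were lower by more than 0.5, as 0 of the 10 were. Among the 3137 genes above the second threshold, these shares were 7.55% and 9.85%, and 2 of the 6 enzyme genes in that class, PSAT1 and MTHFD2, were higher by more than 0.5. A difference above 1 was seen for 3 of the 10, PSAT1, PSPH and ALDH1L2, against 1.08% of all named genes, but that of PSPH rests on a probe set below background on replicate 1. Among genes above the second threshold the share was 0.383%, and PSAT1 was the 1 such gene of the 6. Lower by more than 1 were 0 of the 10, where the shares were 0.88% of all named genes and 0.893% of those above the second threshold. The median difference over the 10 genes was 0.28, beside -0.04 over all named genes. The mean over the 10 was 0.49, beside -0.03. As individual differences they ran from -0.48 for MTHFD1 to 1.70 for ALDH1L2, so the genes of this pathway did not move as a block. With 1 array on each side, none of these differences has a replicate check. The genes were chosen with earlier results of these data known, so the counts are a description and no independent support.

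**Figure D2:**
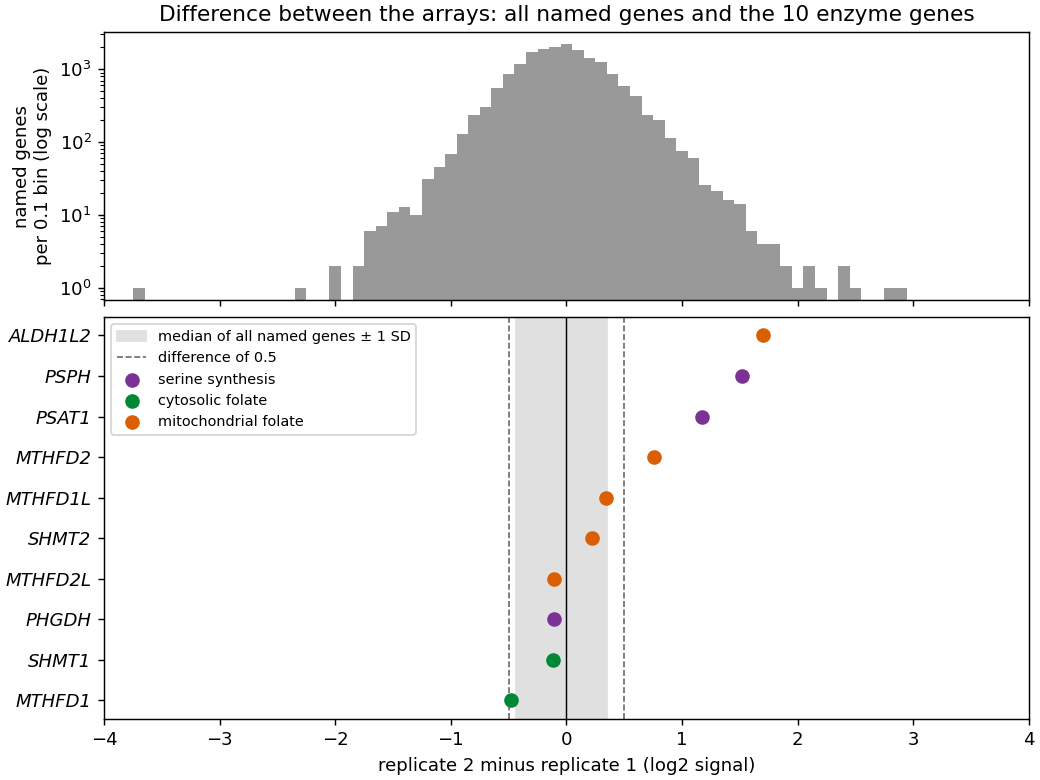
Difference between the arrays (replicate 2 minus replicate 1, log2 signal): counts of all 18404 named genes per bin of width 0.1 on a log scale (top) and the 10 enzyme genes (bottom). The grey band is the median of all named genes ± 1 SD (0.39), the dashed lines mark differences of 0.5, and 4 genes lie beyond the right one.

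Within serine synthesis, the first enzyme differed little between the arrays and the following steps differed most. PHGDH, which oxidises phosphoglycerate and opens the pathway, read 5.66 on replicate 2 and 5.77 on replicate 1 (5.71 ± 0.08, SD, n = 2). The difference of -0.11 is 0.283 times the SD over all genes, well inside the spread between the arrays. PSAT1, the aminotransferase that adds nitrogen from glutamate, read 7.57 on replicate 2 and 6.40 on replicate 1 (6.98 ± 0.83). It was 2.25-fold higher on replicate 2, a difference of 1.17 on the log2 scale, and 98 of the 18404 named genes (0.532%) had a larger one in the same direction.

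PSPH, the phosphatase that releases serine, averaged 4.27 on replicate 2 and 2.76 on replicate 1 over its 2 probe sets, and on replicate 1 that mean was below background. The brighter probe set read 5.0 on replicate 2 and 4.0 on replicate 1, above background on both, a difference of 1.00 or 2.00-fold. The dimmer one read 3.54 on replicate 2 and 1.51 on replicate 1, the second value below background, so it was at least 1.47-fold higher on replicate 2 when set against the threshold of replicate 1. The probe sets therefore lay 1.46 apart on replicate 2 and 2.49 apart on replicate 1, but both were higher on replicate 2. Only the brighter one was above background on both arrays.

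Sequences just upstream of the first enzyme and of the aminotransferase are shown because these neighbouring steps differed so unequally. They are RefSeq promoters of build GRCh38.p14, from 250 bases before to 50 bases after the start. The promoter of PHGDH lies at chr1:119711684-119711983 and that of PSAT1 at chr9:78296875-78297174, both on the plus strand. Both strands were searched for TGATGNAA, the core of the C/EBP-ATF response element bound by ATF4 dimers, and for the E-box CACGTG, bound by MYC and related factors. Neither motif was found in either window, so no letters are in capitals.
PHGDH: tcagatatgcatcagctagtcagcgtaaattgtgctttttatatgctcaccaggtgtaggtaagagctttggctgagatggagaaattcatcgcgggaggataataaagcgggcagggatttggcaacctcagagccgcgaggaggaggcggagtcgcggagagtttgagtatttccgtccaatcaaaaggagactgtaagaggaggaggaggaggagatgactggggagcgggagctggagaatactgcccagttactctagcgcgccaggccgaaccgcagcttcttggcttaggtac
PSAT1: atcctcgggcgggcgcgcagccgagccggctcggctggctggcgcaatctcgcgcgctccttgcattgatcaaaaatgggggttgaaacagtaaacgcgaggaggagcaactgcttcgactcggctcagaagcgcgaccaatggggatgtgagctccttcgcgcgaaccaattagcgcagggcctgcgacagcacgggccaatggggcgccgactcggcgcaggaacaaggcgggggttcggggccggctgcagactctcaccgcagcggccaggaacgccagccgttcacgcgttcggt
Among 35116 promoters of this length, 3.62% held the first motif and 7.26% the second.

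The 5 mitochondrial folate genes were all above the olfactory threshold, where 55.8% of all named genes were. They spread widely in their difference between the arrays. SHMT2, which transfers the carbon unit from serine inside mitochondria, read 7.51 on replicate 2 and 7.30 on replicate 1 (7.41 ± 0.15, SD, n = 2). MTHFD2, the dehydrogenase and cyclohydrolase that oxidises the carried unit, read 8.32 on replicate 2 and 7.56 on replicate 1 (7.94 ± 0.54). MTHFD2 was thus 1.69-fold higher on replicate 2, while the difference of SHMT2, 0.22, was 0.553 times the SD over all genes. Each of the 2 probe sets of MTHFD2 gave this on its own. The brighter read 8.77 on replicate 2 and 7.98 on replicate 1, a difference of 0.79, and the dimmer read 7.88 on replicate 2 and 7.14 on replicate 1, a difference of 0.74.

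MTHFD1L, the mitochondrial synthetase that releases formate, read 5.86 on replicate 2 and 5.52 on replicate 1 (5.69 ± 0.24), a difference of 0.34. MTHFD2L, a second dehydrogenase and cyclohydrolase of mitochondria, read 3.69 on replicate 2 and 3.79 on replicate 1 (3.74 ± 0.07). Both differences were smaller than the SD over all genes, at 0.873 and 0.265 times its size. ALDH1L2 encodes the mitochondrial dehydrogenase that burns the carried formyl group to carbon dioxide and yields NADPH. Its signal was 6.24 on replicate 2 and 4.54 on replicate 1 (5.39 ± 1.20), 3.25-fold higher on replicate 2. Only 16 of the 18404 named genes (0.0869%) had a larger difference in that direction.

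The cytosolic pair was not higher on replicate 2, and neither were PHGDH and the mitochondrial MTHFD2L. SHMT1, the cytosolic hydroxymethyltransferase, read 3.40 on replicate 2 and 3.52 on replicate 1 (3.46 ± 0.08). MTHFD1, a single protein with the dehydrogenase, cyclohydrolase and synthetase activities of the cytosol, read 6.15 on replicate 2 and 6.63 on replicate 1 (6.39 ± 0.34). The difference of MTHFD1, -0.48, was the most negative of the 10 and 1.21 times the SD over all genes, and 10.9% of named genes lay further out on that side.

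The mitochondrial and the cytosolic folate genes could thus be set side by side by counts and by their differences between arrays. Above the second threshold on both arrays were 3 of the 5 mitochondrial genes and 1 of the 2 cytosolic genes. Of all named genes, 17.0% were, and with so few genes these counts do not set the compartments apart. More than 0.5 higher on replicate 2 were 2 of the 5 mitochondrial and 0 of the 2 cytosolic genes. Among all named genes the share was 7.95%, and 0 of 2 is near it. The median difference was 0.34 for the mitochondrial and -0.30 for the cytosolic genes, a gap of 0.64. Counterpart by counterpart, the difference between arrays of SHMT2 exceeded that of SHMT1 by 0.34. That of MTHFD1 was exceeded by MTHFD2 by 1.24, by MTHFD1L by 0.82 and by MTHFD2L by 0.37. The contrast was uneven within mitochondria, where MTHFD2 exceeded its close relative MTHFD2L by 0.86. The gap between the compartments was 0.88 with means in place of medians and 1.06 with shared probe sets averaged in, so its size depends on that choice. The value of 1.06 includes shared MTHFD1L probe sets that were below background on replicate 1. With 2 cytosolic genes and 1 array on each side, the gap has no error of its own.

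Promoters of MTHFD1, MTHFD2 and MTHFD1L are shown next, because these genes span the range from the lowest to a high difference between the arrays. The promoter of MTHFD1 lies at chr14:64388103-64388402, that of MTHFD2 at chr2:74198365-74198664 and the one of MTHFD1L with the motifs furthest upstream at chr6:150866236-150866535, all on the plus strand of GRCh38.p14. Capitals mark matches to the motifs named above, which do not overlap here.
MTHFD1: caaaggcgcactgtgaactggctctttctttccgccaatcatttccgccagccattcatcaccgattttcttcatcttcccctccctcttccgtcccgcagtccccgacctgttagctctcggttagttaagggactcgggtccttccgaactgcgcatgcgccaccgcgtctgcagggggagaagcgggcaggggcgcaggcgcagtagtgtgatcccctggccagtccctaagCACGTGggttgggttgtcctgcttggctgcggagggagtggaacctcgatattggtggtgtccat
MTHFD2: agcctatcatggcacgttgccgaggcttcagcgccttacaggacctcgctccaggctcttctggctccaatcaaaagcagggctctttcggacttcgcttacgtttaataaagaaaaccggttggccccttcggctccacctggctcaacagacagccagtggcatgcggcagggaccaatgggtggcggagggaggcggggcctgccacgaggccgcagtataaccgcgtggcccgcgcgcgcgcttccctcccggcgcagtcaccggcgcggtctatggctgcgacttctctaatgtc
MTHFD1L: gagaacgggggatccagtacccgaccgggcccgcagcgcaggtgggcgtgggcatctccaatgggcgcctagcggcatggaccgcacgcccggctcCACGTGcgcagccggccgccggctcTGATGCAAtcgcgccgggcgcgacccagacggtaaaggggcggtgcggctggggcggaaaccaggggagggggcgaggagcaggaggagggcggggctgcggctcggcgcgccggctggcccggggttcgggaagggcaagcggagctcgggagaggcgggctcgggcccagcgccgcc
The MTHFD1 promoter held CACGTG from 15 bases before the start, and the MTHFD1L promoter held CACGTG from 154 and TGATGCAA from 129 bases before its start. The promoter of MTHFD2 held neither, and nor did the 2 promoters of MTHFD2L, which are not shown. In all, 7 of the 10 genes had 11 promoters, counting alternative starts, and 1 gene held the C/EBP-ATF core and 2 the E-box. Promoters of PSPH, SHMT2 and ALDH1L2 were not available, so these genes were not searched. By gene, 4.46% of 27305 genes held the first motif and 8.77% the second in at least 1 promoter. A match is a run of letters, and neither its presence nor its absence was related here to the signals.

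Probe sets that the enzyme genes share with other symbols were kept out of the values above. MTHFD1L shares 2 such probe sets with 3 uncharacterised loci. One read 3.43 on replicate 2 and 2.68 on replicate 1, and the other 3.05 on replicate 2 and 1.75 on replicate 1, so both passed the olfactory threshold on replicate 2 only. In RefSeq, 5 of the 10 genes have pseudogenes named after them, 14 in all: MTHFD2 has 7, PSAT1 has 4, and PSPH, SHMT1 and MTHFD1 have 1 each. Probes that match such copies would mix their signal into that of the gene, and which probes do so was not tested.

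**Figure D3:**
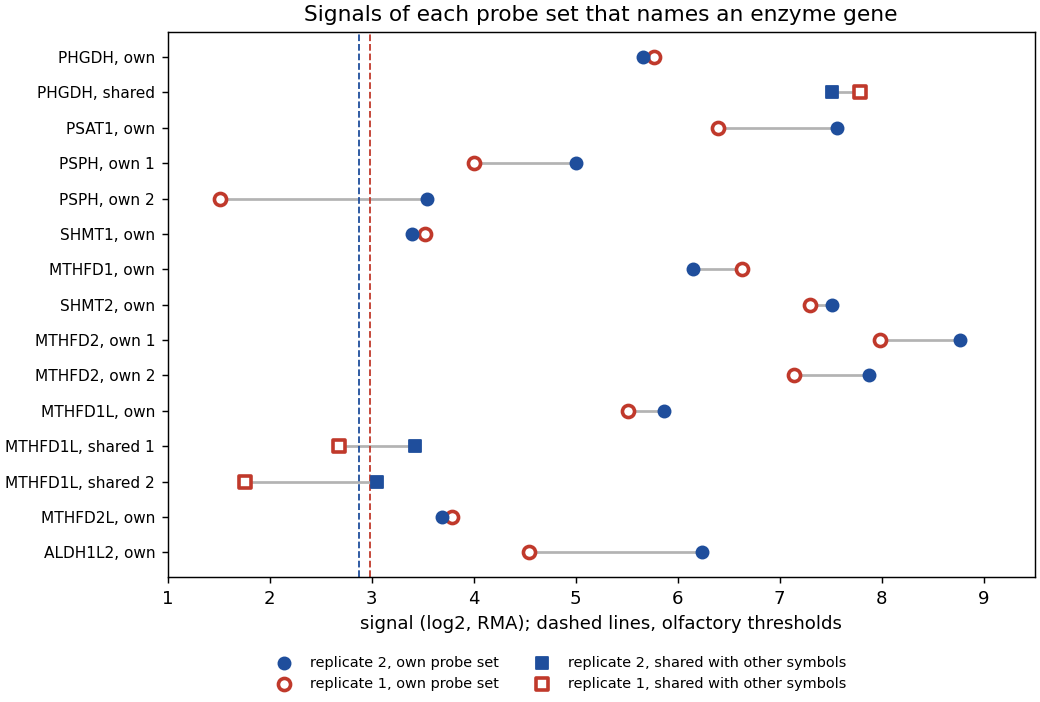
Signal (log2 RMA) of the 12 probe sets that name 1 enzyme gene alone (circles) and of the 3 shared with other symbols (squares), on replicate 2 (filled) and replicate 1 (open). Both PSPH probe sets and both MTHFD2 probe sets lie further right on replicate 2, and the dimmer PSPH probe set starts below the dashed olfactory thresholds on replicate 1.

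Among the genes that bring folate into the cell and hold it there, 3 of 8 were lower on replicate 2 by more than 0.5, where 9.58% of all named genes were, and 0 were higher by more than 0.5. All 8 had the lower value on replicate 2, as 52.6% of all named genes did, but 3 of them were below background on both arrays. SLC25A32, the carrier that takes folate into mitochondria, read 6.69 on replicate 2 and 7.50 on replicate 1 (7.10 ± 0.57, SD, n = 2). The reduced folate carrier SLC19A1 read 4.32 on replicate 2 and 4.86 on replicate 1. The proton-coupled transporter SLC46A1 was above background on replicate 1 only, at 3.47, and at least 1.51-fold lower on replicate 2, where it read 2.69. GGH, which trims the glutamate tail of stored folate, read 6.84 on replicate 2 and 6.97 on replicate 1. Both signals of 4 of the 8 genes lay over the olfactory threshold, a count near the share of 55.8% of all named genes. The 3 genes below that threshold on both arrays were folate receptor genes, among them FOLR2 at 1.97 on replicate 2 and 2.03 on replicate 1.

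The list of other folate enzymes held 8 measured genes. Of these, 6 exceeded the olfactory threshold and 5 the second, where 55.8% and 17.0% of all named genes did. None differed by more than 0.5 in either direction, a count near the shares of 7.95% higher and 9.58% lower among all named genes, and the median difference was -0.03. TYMS, the thymidylate synthase, read 9.51 on replicate 2 and 9.68 on replicate 1. GART, which uses formyl folate in purine synthesis, read 5.83 on replicate 2 and 5.60 on replicate 1, and MTRR, which reactivates methionine synthase, read 6.69 on replicate 2 and 7.07 on replicate 1. MTHFSD passed the olfactory threshold on replicate 1 only (2.70 on replicate 2, 3.09 on replicate 1). ALDH1L1, the cytosolic counterpart of ALDH1L2, was near background at 2.90 on replicate 2 and 2.71 on replicate 1, so a difference between the counterparts could not be measured.

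Of 6 other measured genes of mitochondrial glycine and folate metabolism, 5 passed the olfactory threshold, where 55.8% of all named genes did. The second threshold was passed by 1 of the 6, near the share of 17.0% of all named genes. Higher by more than 0.5 on replicate 2 were 0 of the 6, a count near the share of 7.95% among all named genes, and the median difference was -0.28. MTFMT, which formylates the initiator transfer RNA of mitochondria, read 5.13 on replicate 2 and 5.63 on replicate 1, the only difference beyond 0.5 in the list. It was thus the 1 gene of the 6 lower by more than 0.5, beside 9.58% of all named genes. AMT, the folate-dependent protein of glycine cleavage, read 3.34 on replicate 2 and 3.83 on replicate 1. DLD, a subunit shared with other complexes, read 8.30 on replicate 2 and 8.26 on replicate 1. The mitochondrial reductase gene DHFR2 (3.69 on replicate 2, 3.86 on replicate 1) differed less than the SD over all genes, and DMGDH, which demethylates dimethylglycine, was below background on both arrays at 1.76 on replicate 2 and 2.15 on replicate 1.

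All 11 measured genes of serine transport and use were above the olfactory threshold, where 55.8% of all named genes were. The second threshold was passed by 3 of the 11, where 17.0% of all named genes passed. The median difference of the list was 0.07. By more than 0.5, 2 were higher on replicate 2 and 1 was lower, beside 7.95% and 9.58% of all named genes. The higher ones encode neutral amino acid transporters of the cell surface. SLC38A2 read 10.05 on replicate 2 and 9.22 on replicate 1, and SLC38A1 read 9.97 on replicate 2 and 9.26 on replicate 1. The mitochondrial sideroflexin gene SFXN2 read 3.12 on replicate 2 and 3.72 on replicate 1. The serine racemase SRR read 4.17 on replicate 2 and 4.62 on replicate 1, and SFXN3 read 3.25 on replicate 2 and 3.18 on replicate 1.

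Of 4 measured glycolytic genes around phosphoglycerate, the substrate of PHGDH, 3 were lower on replicate 2, where 52.6% of all named genes were. By more than 0.5, 2 of the 4 were lower, PGK1 and ENO1, beside 9.58% of all named genes. PGK1, which produces phosphoglycerate, read 6.28 on replicate 2 and 7.06 on replicate 1. ENO1, the enolase further down glycolysis, read 8.32 on replicate 2 and 9.47 on replicate 1, a difference of -1.16. BPGM, which makes and removes bisphosphoglycerate, read 3.81 on replicate 2 and 4.0 on replicate 1, a difference 0.486 times the SD over all genes. The mutase gene PGAM2 was deposited with the same value on both arrays, 4.23, as 5.23% of all named genes were equal on both. The median of these 4 genes was -0.49.

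Other genes of the ATF4 response were mostly higher on replicate 2, as PSAT1, PSPH, MTHFD2 and ALDH1L2 were. Of 26 measured genes, 22 were higher on replicate 2, where 42.1% of all named genes were. By more than 0.5, 14 were higher and 0 lower, where the shares of all named genes were 7.95% and 9.58%. The 14 include ATF3 by its raw difference of 0.78, although its bound, with replicate 1 below background, is only 0.30. The median difference of the list was 0.59, or 0.49 with the 2 genes measured on 1 array only at their bound. CTH, an enzyme of cysteine synthesis, read 6.56 on replicate 2 and 4.67 on replicate 1, and the secreted glycoprotein gene STC2 read 5.58 on replicate 2 and 3.81 on replicate 1. PPP1R15A, which restores translation after stress, read 5.64 on replicate 2 and 4.59 on replicate 1. The cystine transporter SLC7A11 read 6.55 on replicate 2 and 5.58 on replicate 1, and the synthetase gene GARS1 8.74 on replicate 2 and 8.01 on replicate 1. ATF3 was above background on replicate 2 only, at 3.29, and at least 1.23-fold higher there than on replicate 1 (2.50). A shift of amino acid response genes towards replicate 2 was known from these arrays when the list was drawn up, so its count is a description and no independent support.

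Values that moved with these differences, or did not, are as follows. Of the proliferation genes, 15 of 15 were above the olfactory threshold, where 55.8% of all named genes were. By more than 0.5, 0 of the 15 differed, beside 7.95% higher and 9.58% lower among all named genes. Their median difference was -0.11. The ends of that list were RRM1, with 7.07 on replicate 2 and 7.55 on replicate 1, and TK1, with 5.32 on replicate 2 and 4.88 on replicate 1. RRM2 read 7.12 on replicate 2 and 6.77 on replicate 1, and TOP2A 8.36 on replicate 2 and 8.02 on replicate 1. Promyelocyte markers were lower on replicate 2 by more than 0.5 in 4 of 10 cases (MPO, PRTN3, CTSG and MS4A3), where 9.58% of all named genes were. ELANE, MYB, SPI1 and AZU1 were higher on replicate 2 by 0.18 to 0.24. The 10 markers had a summed signal of 10.81 on replicate 2 and 11.25 on replicate 1 (log2 of the sum). The summed signal of the markers of other cell types was 7.62 on replicate 2 and 7.74 on replicate 1. The part of the promyelocyte markers in the enzyme differences was not tested, and in RNA of a whole culture fewer cells of a kind and less RNA per cell cannot be told apart.

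**Figure D4:**
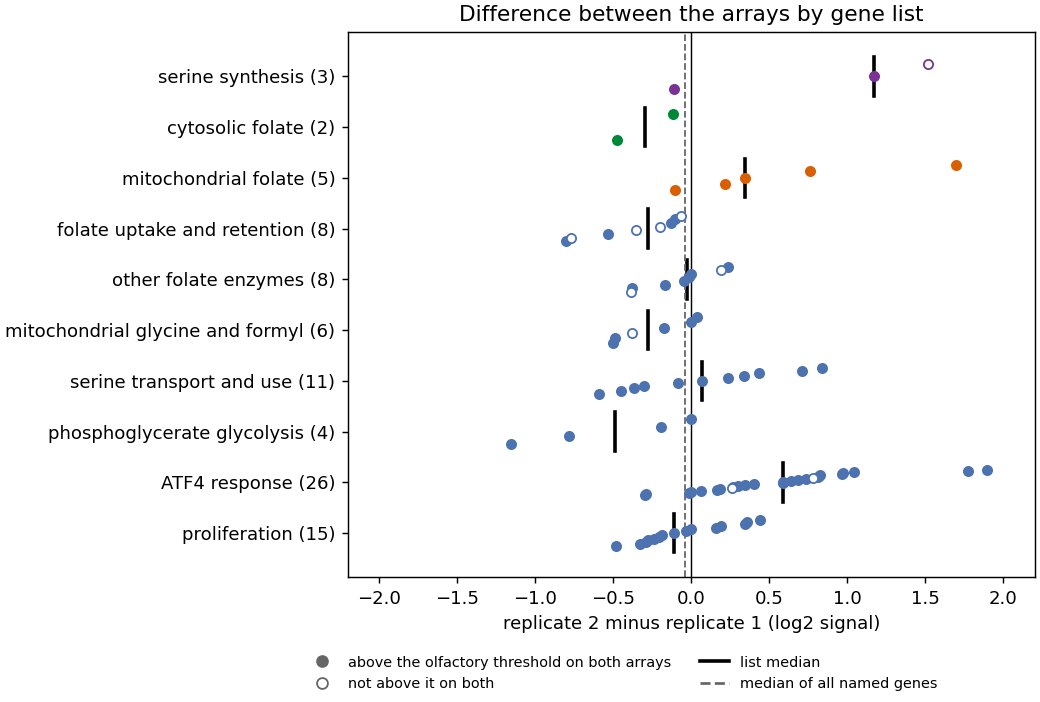
Difference between the arrays (replicate 2 minus replicate 1, log2 signal) of each measured gene by list, with the number of genes in brackets, the list median (bar) and the median of all named genes (dashed). Filled points are genes above the olfactory threshold on both arrays, and open points are the others. The ATF4 response lies mostly to the right, and the mitochondrial folate genes run from -0.10 to 1.70. Folate uptake and retention lies left of 0, with 4 of its 8 genes above that threshold on both arrays, where 55.8% of all named genes were.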

How the data were processed

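Total RNA (200 ng per sample) was amplified, biotin-labelled and hybridised to Human Gene 1.0 ST arrays, per the labels' protocols. The authors deposited 1 log2 signal for each probe set and array, computed with RMA according to the submitters' processing notes. Software, version and the set of arrays normalized jointly are not stated in the sources used. Base 2 was taken because RMA uses it, and RMA hides global differences in RNA content. Of 32321 probe sets, 19158 carried 1 symbol in the platform annotation, and 19128 of these were matched by Entrez ID to RefSeq (GRCh38.p14). Several probe sets of a gene were averaged. No scanner files and no protein sequences were used here.

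A gene was above background when both of its signals lay over the 95th percentile of olfactory receptors. Differences beyond 0.5 (log2) were counted. No p-values were computed, because 1 group exists. A gene below background on 1 array has only a bound there: its signal on the other array against the threshold. The procedure was tested on simulated data.

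Named were all 10 enzyme genes, DNMT1 and, of each further list, the highest and lowest signal and up to 4 largest differences (on at least 1 array over background). The genes and lists were chosen with earlier results of these data known. Genes without a probe set of their own are not reported. Alternatives were quantile normalization, loess, other probe sets, other thresholds, each array alone, means, and a filter on dim genes. Python 3.11.15, numpy 2.4.6, pandas 2.3.3, statsmodels 0.14.6 and matplotlib 3.10.9 were used.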

Additional observations from a re-analysis of the deposited data

Results flagged for a closer look

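The probe set shared by MZT2B, a gene of the microtubule-organising centre, and PHGDH was left out of the gene values but gave a signal above both thresholds on both arrays. It read 7.51 on replicate 2 and 7.79 on replicate 1, with a mean of 7.65. Like the probe set of PHGDH alone it was not higher on replicate 2. How much of this signal belongs to either gene was not tested.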

How the results depend on the processing

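No paired analysis was possible because there is a single group. Counts within 1.5 times the main one, and differences within 0.28 of it, made up 255 of 272 recomputed values; 17 moved and 0 changed sign after being called. The 10 enzyme genes kept the sign of their difference in all 59 recomputed values. Many recomputed values could not differ from the main one, since most of these genes have 1 probe set of their own. For such a gene the highest and the lowest probe set are the same. The filter on dim genes likewise cannot change the difference of a gene that passes it. The limit of 1.5 times also takes in the fall from 9 to 6 enzyme genes above background with the second background set. All values come from the same 2 arrays. With the second background set as threshold, 38 in place of 69 genes of the further lists were above background, since that threshold is higher. An alternative chosen after seeing the data averaged in the probe sets shared with other symbols. The gap between mitochondrial and cytosolic folate genes was then 1.06 in place of 0.64, because the difference of MTHFD1L became 0.80. Its 2 shared probe sets were below background on replicate 1, so their differences are bounds of at least 0.45 and 0.07. Their raw values were used in this average, so the gap of 1.06 rests on signals below background. With 1 array left out, 9 to 10 of the enzyme genes and 71 to 72 genes of the further lists were above background. The difference of PSPH was 1.00 by its brighter probe set and 2.03 by its dimmer one, against 1.51 by their mean. The dimmer probe set and the mean were below background on replicate 1, so their differences are bounds of at least 0.56 and 1.29. With means in place of medians, the 10 genes differed by 0.49 in place of 0.28 and the gap between compartments was 0.88. At the 99th percentile of olfactory receptors, 7 of the 10 enzyme genes were above background. Past a difference of 1, the further lists held 3 genes higher and 1 lower on replicate 2, in place of 16 and 7. The 16 include ATF3 by its raw difference of 0.78, against a bound of 0.30. Differences between arrays have no value with 1 array left out. Background correction and scan batches, which need scanner files, were not examined.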

Other observations

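Within the ATF4 response list, a few genes stood apart from the others, named here after their values were seen. ATF4 itself, whose protein level is known to be set largely at translation, read 5.84 on replicate 2 and 5.85 on replicate 1 as the mean of its 2 probe sets, a difference of -0.01. ASNS, the asparagine synthetase, read 7.30 on replicate 2 and 7.59 on replicate 1, and the stress kinase gene EIF2AK3 read 4.46 on replicate 2 and 4.76 on replicate 1. PHGDH was likewise not higher on replicate 2, unlike PSAT1 and PSPH of the same short pathway.

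The related factor ATF5 read 7.27 on replicate 2 and 6.31 on replicate 1, and VLDLR, a lipoprotein receptor, 7.83 on replicate 2 and 7.01 on replicate 1. TRIB3, a feedback regulator of ATF4, read 4.96 on replicate 2 and 4.14 on replicate 1. The aminoacyl-tRNA synthetase genes AARS1 (7.93 on replicate 2, 7.34 on replicate 1) and WARS1 (7.58 on replicate 2, 6.90 on replicate 1) differed in the same direction. No cause of these differences between the arrays was tested.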
